A study of Homo sapiens with 8 samples.

Results

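Lysyl oxidases and lysyl hydroxylases are the enzymes that crosslink collagen and elastin and that prepare collagen lysines for crosslinking. They were read on all 8 dual-color arrays through every gene probe whose RefSeq accession maps to LOX, LOXL1, LOXL2, LOXL3, LOXL4, PLOD1, PLOD2 or PLOD3. This gave 10 probes of 8 genes among the 41000 probes of the array, 7 probes of 5 lysyl oxidases and 3 probes of 3 lysyl hydroxylases. Of the 10 probes, 8 passed the filter on dim probes and were tested with 26014 probes in all. Neither LOXL4 probe passed it.

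RNA of 2 populations made from H460, an established human non-small-cell lung carcinoma line, was compared with RNA of the parental line. H460C cells, the putative cancer stem cells, were H460 cells cultured without serum and without adherence, in DMEM/F12 with N2 supplement, EGF and FGF-b. H460R cells were the resistant population, raised by a 72 h exposure of H460 to 0.5 µg/ml of cisplatin, after which no drug was given. H460R and H460 cells shared RPMI with bovine serum, so growth medium, adherence and population cannot be told apart for H460C. Each population had 2 RNA samples, each hybridized with H460 RNA on 2 arrays with swapped dyes, and all arrays of a population lay on 1 slide, which cannot be told apart from the population either. The labels name the same single H460 sample on every array, whose own spread is therefore not in the tests. The H460C samples could not be separated from each other beyond hybridization noise. The difference between them on the Cy3 arrays had a correlation of -0.0107 with that on the Cy5 arrays, across 24642 probes, which are not independent replicates, against 0.267 across 25713 probes for H460R. H460C means are therefore given without an SD and were counted as 1 sample in the comparison with H460R.

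Lysyl hydroxylases act in the endoplasmic reticulum, where they hydroxylate lysines of procollagen chains. PLOD2 is known for the lysines of the telopeptides, whose hydroxylation leads to stable crosslinks, and PLOD1 for those of the helix, while PLOD3 also adds sugars to hydroxylysine. Lysyl oxidases are secreted copper enzymes that oxidize lysine and hydroxylysine of collagen and elastin to the aldehydes from which crosslinks form. In solid tumors both families are known for stiffening of the matrix, and LOX and PLOD2 are known targets of the hypoxia-inducible factors.

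PLOD2 and PLOD3 are shown by their promoters, because PLOD2 was the only hydroxylase higher than in H460 cells by the test used and PLOD3 had ratios below 0 on every array. RefSeq promoters of GRCh38.p14, of 300 bases each, were found for 7 of the 8 genes. The PLOD2 promoter lies at chr3:146161135-146161434 on the minus strand and that of PLOD3 at chr7:101217532-101217831 on the minus strand. Both are written 5′ to 3′ along the gene. Capitals mark ACGTG on either strand, a form of the core of the hypoxia response element. Other forms were not searched.
PLOD2: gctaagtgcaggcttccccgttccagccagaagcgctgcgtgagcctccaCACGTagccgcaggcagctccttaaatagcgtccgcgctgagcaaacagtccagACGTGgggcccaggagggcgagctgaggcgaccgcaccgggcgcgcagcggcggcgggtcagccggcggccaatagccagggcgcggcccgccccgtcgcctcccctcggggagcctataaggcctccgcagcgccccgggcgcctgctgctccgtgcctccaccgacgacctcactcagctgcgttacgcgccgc
PLOD3: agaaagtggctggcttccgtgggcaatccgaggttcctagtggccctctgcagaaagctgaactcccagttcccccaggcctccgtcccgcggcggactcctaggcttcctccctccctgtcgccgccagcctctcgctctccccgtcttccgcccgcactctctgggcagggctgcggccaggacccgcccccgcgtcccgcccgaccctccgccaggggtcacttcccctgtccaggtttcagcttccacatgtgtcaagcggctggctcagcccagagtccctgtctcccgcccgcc
The PLOD2 promoter held ACGTG at 2 places, which begin 200 and 146 bases before the start, and the PLOD3 promoter held none. The first of the 3 LOX promoters held it at 4 places. The other 2 overlap each other and held it at 1 place each, which is the same site in the genome. Those of LOXL1, LOXL3, LOXL4 and PLOD1 held none. ACGTG was present in 21.4% of the 35116 promoters of the table, and a match describes letters only.

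In CSCs, LOXL2 was the only one of the 8 tested probes that rose over H460 cells, to 6.71-fold, and none fell at an FDR of 0.05. In cisplatin-resistant cells, PLOD2 was the only one that rose, to 3.85-fold, and none fell. PLOD2 in the H460 channel, the divisor, had a mean log2 level of 10.11 on the H460R arrays. It was 11.10 on the 3 H460C arrays with a value, where dye is not balanced. The part of this shift in the PLOD2 ratios was not tested. The test was Rank Products on the 2 dye-averaged log2 ratios of a population, taking the p of each product of ranks from its exact distribution. In H460C it called 0.934% of the tested probes, 0.492% higher and 0.442% lower, and in H460R 0.915%, 0.481% higher and 0.434% lower. At an unadjusted p under 0.05 it passed 5 of the 8 probes in H460C and 2 in H460R, beside 18.6% and 18.2% of all tested probes. The median log2 ratio of the 8 probes was -0.51 in H460C and -0.05 in H460R, beside 0.00 and 0.01 for the whole set of tested probes.

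**Figure D1:**
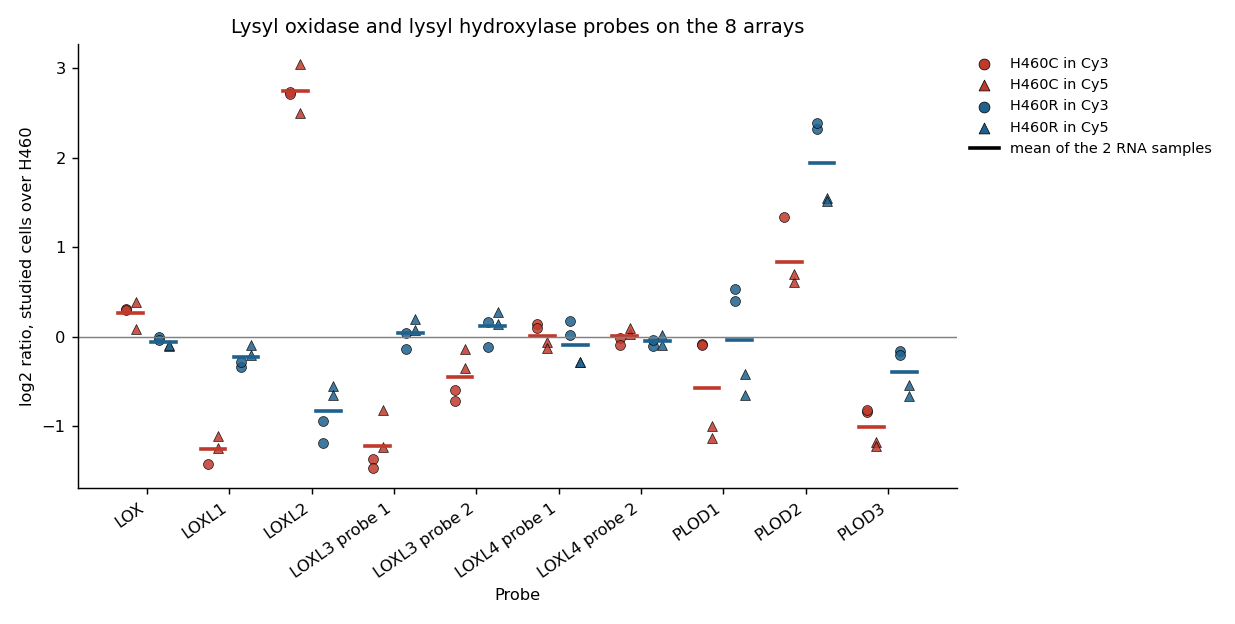
Log2 ratio of the studied cells over H460 (vertical axis) for the 10 probes (horizontal axis) on each array, colored by population, with circles and triangles for the studied cells in Cy3 and Cy5 and bars for the mean of the RNA samples. LOXL2 stands above the other probes in H460C, with 2.49 to 3.05, and PLOD2 in H460R, with 1.52 to 2.38.

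LOXL2, which oxidizes lysines of collagen IV among other collagens, was printed as 10 spots on every array. Its log2 ratio in H460C over H460 was 2.73 and 2.49 in replicate 1, with H460C in Cy3 and in Cy5, and 2.71 and 3.05 in replicate 2. The sample means were 2.61 and 2.88, and their mean was 2.75 (Rank Products FDR = 0.0228 with the exact distribution). This was the 69th highest of all tested probes. In H460R over H460 the 4 arrays gave -0.94, -0.55, -1.19 and -0.65, in the same order. The sample means were -0.75 and -0.92, with a mean of -0.83 ± 0.12 (SD, n = 2), or 1.78-fold lower than H460 (exact Rank Products FDR = 0.232). LOXL2 therefore lay above H460 on all 4 H460C arrays and below H460 on all 4 H460R arrays. Within an array its spots differed by an SD of 0.05 to 0.07 in H460C and 0.04 to 0.11 in H460R, and no spot of H460C overlapped one of H460R.

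The background-subtracted intensity of LOXL2 was 2761 to 6168 in H460C channels, no higher than 280 in H460R channels and 183 to 507 in H460 channels. LOXL2 was well above background in every channel and saturated in none. In the deposited processed table, its log2 ratio was 2.56 to 2.88 in H460C and -1.19 to -0.64 in H460R. Taken from the scanner software's own log ratios, LOXL2 had 3.11 in H460C and an FDR of 0.0810 by the exact Rank Products, so the call was lost there.

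**Figure D2:**
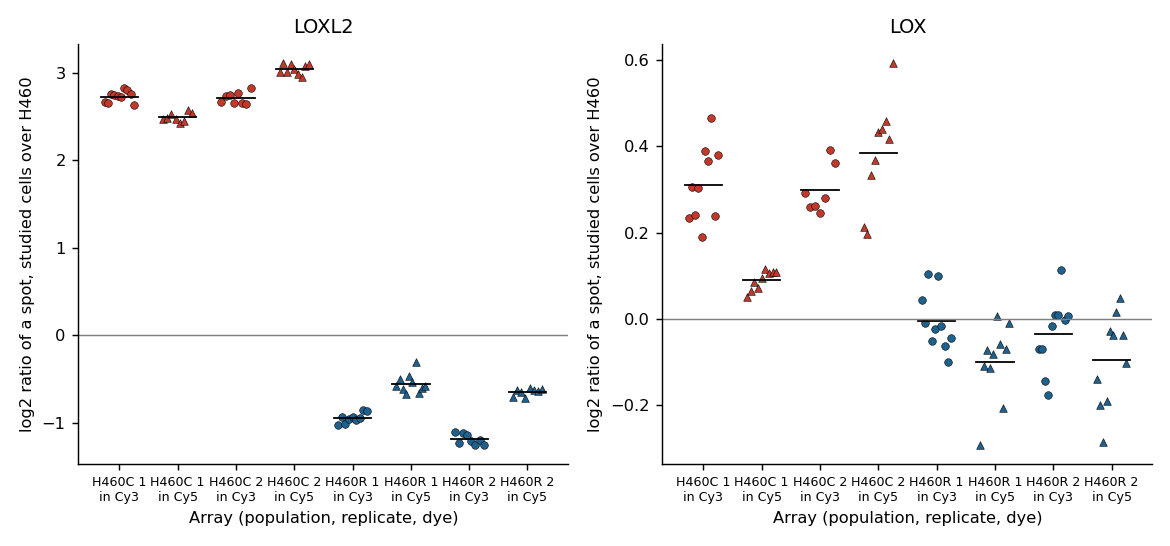
Log2 ratio over H460 of each single spot (vertical axis) of LOXL2 and LOX on the 8 arrays (horizontal axis), with a bar at the mean of an array. LOXL2 spots lie between 2.43 and 3.11 in H460C and between -1.25 and -0.30 in H460R, and the axis for LOX covers a far smaller range.

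LOX, the founding lysyl oxidase, was dim. Its 10 spots gave log2 ratios of 0.31, 0.09, 0.30 and 0.38 on the H460C arrays and of -0.01, -0.10, -0.03 and -0.10 on the H460R arrays. The arrays of the populations did not overlap, although all values were small. LOX was well above background on 4 of 4 arrays in H460C, with intensities of 54 to 93, and on no array in H460R or H460, with 33 to 41. A measured ratio then only bounds the change. The bound from the means put H460C 1.21-fold higher than H460, which is no tested minimum (exact Rank Products FDR = 0.979).

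LOXL1, which crosslinks elastin, had log2 ratios of -1.42 and -1.10 in replicate 1 of H460C and of -1.24 in replicate 2. Replicate 2 rests on its Cy5 array alone, because the spot on the Cy3 array was marked as an outlier, so dye is not balanced there. The mean was -1.25 (exact Rank Products FDR = 0.160), which is 2.38-fold lower than H460. In H460R the arrays gave -0.33, -0.21, -0.29 and -0.09, with a mean of -0.23 ± 0.058 (SD, n = 2; exact Rank Products FDR = 0.947). LOXL1 was below H460 on every array with a value, and the H460C arrays lay below all H460R arrays.

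LOXL3, a lysyl oxidase with scavenger receptor domains like LOXL2, was read by 2 probes. The brighter probe had log2 ratios of -1.36, -0.81, -1.46 and -1.23 in H460C, with a mean of -1.22 (exact Rank Products FDR = 0.172). In H460R it had 0.05, 0.20, -0.13 and 0.07, with a mean of 0.05 ± 0.11 (SD, n = 2; exact Rank Products FDR = 1). The dimmer probe had a mean of -0.45 in H460C and 0.12 ± 0.054 (SD, n = 2) in H460R. It was not well above background on any H460C array. The bound from the means put H460 1.34-fold higher, which is no tested minimum (exact Rank Products FDR = 0.703). Both LOXL3 probes were below H460 on every H460C array, and on the H460R arrays their signs were mixed.

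LOXL4 gave no measured change. One of its probes was well above background in H460R on 1 of 4 arrays and in H460 on 1 array, with intensities of 32 to 57 over all channels. The other probe was well above background in no channel, with intensities of 16 to 35.

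PLOD2 had log2 ratios of 2.32 and 1.56 in H460R replicate 1, with H460R in Cy3 and in Cy5, and of 2.38 and 1.52 in replicate 2. The sample means were 1.94 and 1.95, with a mean of 1.94 ± 0.011 (SD, n = 2; exact Rank Products FDR = 0.0224). This was the 62nd highest of all tested probes. In H460C it had 1.34 and 0.61 in replicate 1 and 0.70 in replicate 2, whose Cy3 array had an outlier spot. Dye is therefore not balanced in the H460C values. The mean was 0.84 (exact Rank Products FDR = 0.440), or 1.79-fold over H460. PLOD2 was above H460 on every array with a value, and all 4 H460R arrays lay above the H460C arrays. With the outlier spot kept, an alternative chosen after seeing the data, the H460C mean was 1.04.

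The PLOD2 ratios differed between the dyes. In H460R the mean was 2.35 on the Cy3 arrays and 1.54 on the Cy5 arrays, a gap as large as that of 8.29% of tested probes, and the FDR by the exact Rank Products was 0.0779 on the Cy5 arrays alone. The Cy3 arrays gave no test for PLOD2, since the missing H460C spot removed it there. With the scanner software's log ratios PLOD2 had 2.03 and an exact Rank Products FDR of 0.133.

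PLOD1 had log2 ratios of -0.08 and -0.99 in H460C replicate 1, in Cy3 and in Cy5, and of -0.09 and -1.13 in replicate 2. In H460R they were 0.54 and -0.41 in replicate 1 and 0.40 and -0.65 in replicate 2. In H460R the sign differed between the dyes, and the mean over both was -0.03 ± 0.13 (SD, n = 2). In H460C the mean was -0.09 over the Cy3 arrays and -1.06 over the Cy5 arrays, and -0.57 over both (exact Rank Products FDR = 0.565). Cy5 arrays lay 0.98 below Cy3 arrays in H460C, where 4.36% of tested probes had a gap as large, and 4.66% did in H460R for the gap found there.

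PLOD3 was the brightest of the 10 probes, with intensities of 9278 to 27316. Its log2 ratio was -0.84, -1.18, -0.82 and -1.22 on the H460C arrays, with a mean of -1.01 (exact Rank Products FDR = 0.242), or 2.02-fold lower than H460. On the H460R arrays it was -0.16, -0.54, -0.20 and -0.66, with a mean of -0.39 ± 0.059 (SD, n = 2; exact Rank Products FDR = 0.701). PLOD3 was below H460 on all 8 arrays, the H460C arrays lay below all H460R arrays, and in both populations the Cy5 arrays gave the lower values.

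The means of the 3 hydroxylases therefore did not share a direction, and Rank Products called only PLOD2 in H460R. The mean of PLOD2 was above H460 in both populations and that of PLOD3 below it, while PLOD1 was below H460 in H460C and within its own spread of H460 in H460R. By limma on the same ratios against 0, an alternative to Rank Products, 8 of the 8 probes passed in H460C and 4 in H460R, beside 70.8% and 68.3% over the whole tested set. That fit counted the H460C replicates as 2 samples, so it holds no spread between H460C cultures.

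**Figure D3:**
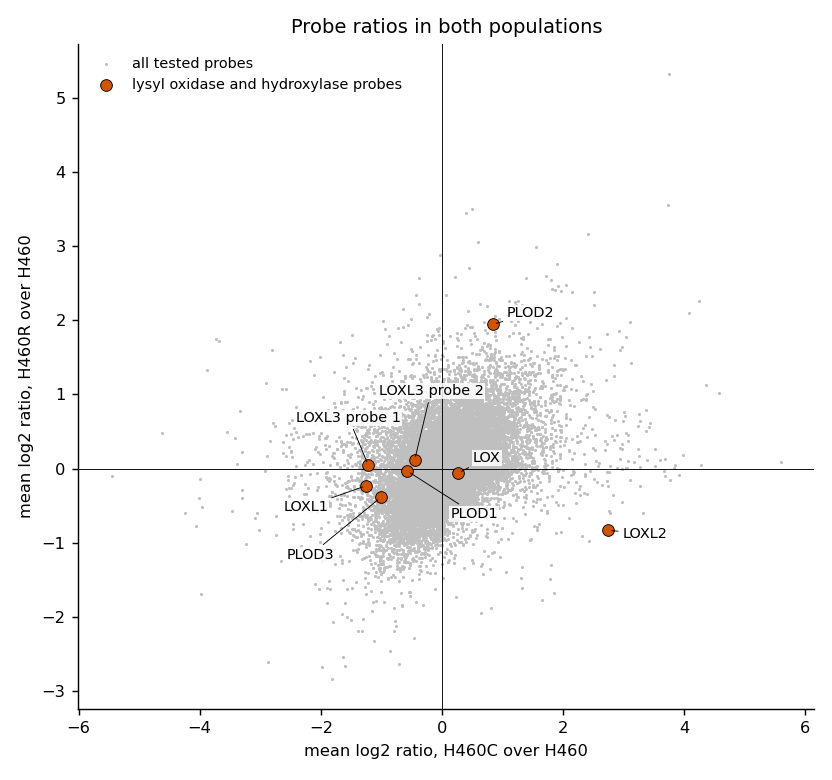
Mean log2 ratio over H460 in H460C (horizontal axis) and in H460R (vertical axis) for all 26014 tested probes in gray and the 8 tested lysyl oxidase and lysyl hydroxylase probes in orange. LOXL2 lies at 2.75 and -0.83, and PLOD2 at 0.84 and 1.94.

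Comparing the populations with each other asks which enzymes distinguish CSCs from resistant cells. All 8 tested probes differed by limma, 2 of them higher in H460C (LOX and LOXL2) and 6 lower. This test called 45.4% of all tested probes, 22.5% higher and 22.9% lower in H460C. LOX passed the filter on dim probes only through H460C, and the dim LOXL3 probe only through H460R. Each was let in by the population where it was higher, so these calls are not independent of the filter. The median difference was -0.60 on the log2 scale, beside 0.01 over all tested probes. Both comparisons share the H460 sample. As H460C was counted as 1 sample, the SE and intervals below rest on the spread of the H460R samples, moderated over all tested probes. They hold no spread between H460C cultures, between slides or between H460 samples.

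LOXL2 differed by 3.58 (SE 0.11, 95% interval 3.33 to 3.83, limma adjusted p = 2.37e-06), or 11.9-fold, the 11th highest difference of all tested probes. The bright LOXL3 probe was lower in H460C by -1.26 (SE 0.10, 95% interval -1.51 to -1.02, limma adjusted p = 0.000108). LOXL1 was lower by -1.02 (limma adjusted p = 0.000191) and PLOD2 by -1.11 (95% interval -1.32 to -0.89, limma adjusted p = 0.000111). PLOD3 had a difference of -0.62 (limma adjusted p = 0.0018), PLOD1 of -0.54 (limma adjusted p = 0.0062) and the dim LOXL3 probe of -0.57 (limma adjusted p = 0.00264). For that last probe the bound from the mean channel levels put H460R 1.35-fold higher than H460C. The PLOD2 mean of H460C lacks 1 Cy3 array, so dye is not balanced in the PLOD2 difference. That difference was -0.88 on the Cy5 arrays alone. With the outlier spot kept, an alternative chosen after seeing the data, it was -0.91. LOX differed by 0.33 (limma adjusted p = 0.0232). In the channel levels, which are not divided by H460, the LOX difference was 0.38. As LOX was dim in H460R, this is a bound from the means, with H460C 1.30-fold higher. The LOX call was lost without H460C replicate 2 (limma adjusted p = 0.0568) and without H460R replicate 1 (0.0558) or 2 (0.0594).

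The H460 channel itself differed between slides for PLOD2. Its normalized level in H460, on the log2 scale, was 10.32, 11.46 and 11.32 on the 3 H460C arrays with a value and 9.81, 9.98, 10.20 and 10.45 on the H460R arrays. The mean was 1.00 higher on the H460C arrays, and 1.30% of tested probes had a shift as large, with a median absolute shift of 0.211. The missing Cy3 array of H460C leaves dye unbalanced in this mean. With the studied cells in Cy3, the H460 level was 10.32 on the H460C slide and 9.81 and 10.20 on the H460R slide. With the studied cells in Cy5, it was 11.46 and 11.32 against 9.98 and 10.45. The level of PLOD2 in the studied channels overlapped between the populations, at 11.66, 12.07 and 12.02 in H460C and at 12.13, 11.53, 12.58 and 11.97 in H460R. When these channels were compared without the H460 channel, an alternative chosen after seeing the data, the PLOD2 difference was -0.11 (limma adjusted p = 0.906) in place of -1.11. LOXL2 kept its difference there, at 3.52 (limma adjusted p = 0.00676), and was the only one of the 8 probes called, among 2.47% of all tested probes. Its H460 level differed by -0.06 between slides. LOXL1 differed by -1.03 (limma adjusted p = 0.223) and PLOD3 by -1.05 (0.159) in that comparison. The part of the slide in these values was not tested.

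**Figure D4:**
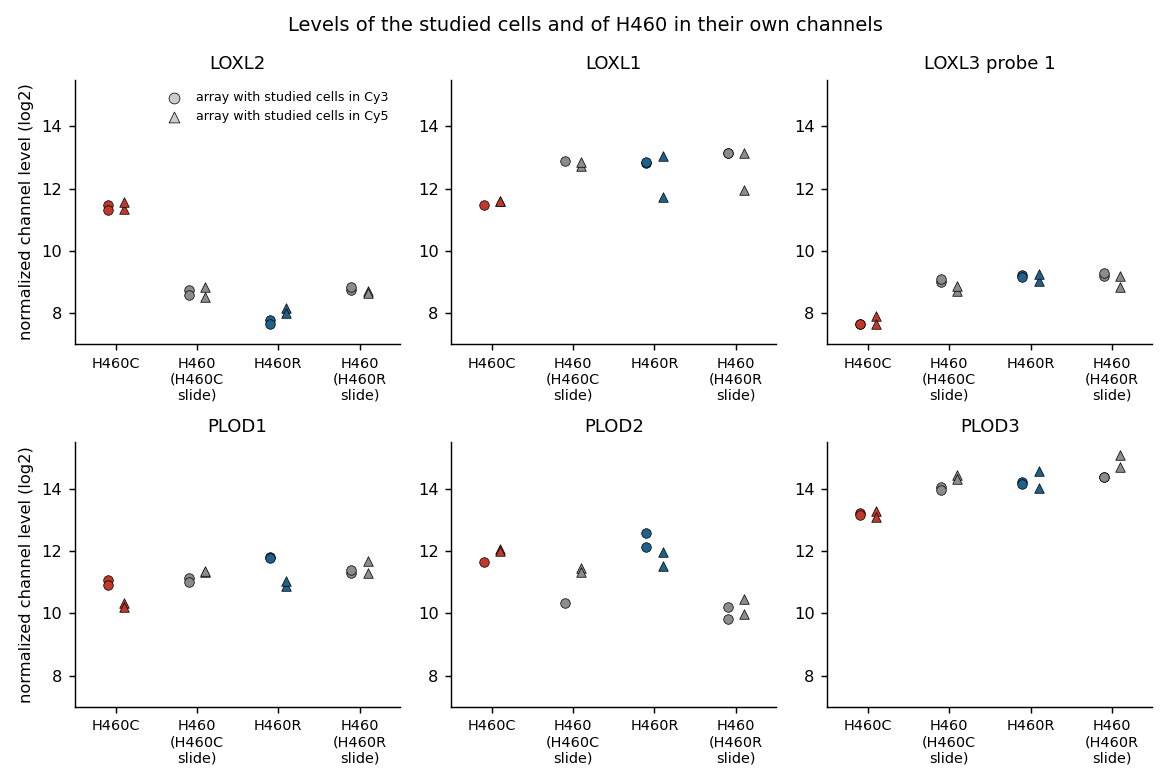
Normalized log2 level (vertical axis) of 6 probes in the channel of the studied cells, in color, and of H460, in gray, on the arrays of each slide (horizontal axis), with circles and triangles for arrays with the studied cells in Cy3 and Cy5. H460 levels of PLOD2 lie between 10.32 and 11.46 on the H460C slide and between 9.81 and 10.45 on the H460R slide, while LOXL2 in H460C stands apart from all other LOXL2 levels.

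The genes whose 4 ratios lay nearest to those of LOXL2, by Euclidean distance among 12373 other genes, were IL21R, NFE2, PAEP, NDRG1 and SLC30A3, at distances of 0.39 to 0.77 on the log2 scale. NDRG1 had a mean log2 ratio of 2.31 in H460C and -0.91 in H460R. The genes nearest to PLOD2 were WSB1, EPS8, CXCL5, MT2A and CDKN1A, at distances of 0.25 to 0.40. WSB1 had a mean of 0.88 in H460C and 1.85 in H460R.

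The other genes of collagen maturation were read from the brightest probe of each. Over all 12374 genes so read, Rank Products called 1.26% in H460C, 0.719% higher and 0.541% lower, and 1.06% in H460R, 0.55% higher and 0.509% lower. Between the populations limma called 50.2%, 25.3% higher and 24.9% lower in H460C. At an unadjusted p under 0.05 Rank Products passed 21.4% of these genes in H460C and 18% in H460R, and limma against 0 called 73% and 69.6%, the shares against which the counts of each group are read. Prolyl hydroxylases and their partners, which stabilize the triple helix, were tested for 10 of 10 genes. Rank Products called none in either population, with 5 and 2 genes at an unadjusted p under 0.05 in H460C and H460R and 8 and 9 genes called by limma. Their median log2 ratio was -0.33 in H460C and 0.37 in H460R, beside 0.00 over all genes in both. Between the populations 2 were higher in H460C and 7 lower by limma. The 2 were the catalytic subunits P4HA1, with a difference of 1.04 (limma adjusted p = 0.000173), and P4HA2, with 1.32 (limma adjusted p = 0.000149). P4HA2 had ratios of 1.71 and 1.70 in the H460C samples and of 0.50 and 0.27 in the H460R samples. CRTAP and P3H3, of the prolyl 3-hydroxylation machinery, were lower in H460C by -1.21 and -1.25 (limma adjusted p = 0.000101 and 9.31e-05).

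Of collagen chaperones and glycosyltransferases 9 of 10 genes were tested. Rank Products called none, with 2 and 3 genes at an unadjusted p under 0.05 and 8 and 9 genes called by limma in H460C and H460R. Their median log2 ratio was -0.15 in H460C and 0.32 in H460R. Between the populations 1 was higher in H460C and 3 lower. FKBP10, a prolyl isomerase known to act with PLOD2, had log2 ratios of -1.63 and -1.70 in the H460C samples and of 1.02 and 0.77 in the H460R samples, a difference of -2.56 (limma adjusted p = 1.06e-05). PLOD2 and FKBP10 thus had the same sign in H460R and opposite signs in H460C, but only PLOD2 in H460R was called against H460. For FKBP10 the exact Rank Products FDR was 0.0789 in H460C and 0.335 in H460R. SERPINH1, the collagen chaperone HSP47, had a difference of 0.49 in favor of H460C (limma adjusted p = 0.00968).

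Of procollagen processing genes, which trim the chains and include BMP1, the protease that activates LOX, 4 of 8 were tested. Rank Products called none, and none had an unadjusted p under 0.05, while limma called 3 in H460C and 2 in H460R. Their median log2 ratio was -0.15 in H460C and -0.12 in H460R. BMP1 had log2 ratios of -0.20 and -0.45 in the H460C samples and of -0.17 and -0.11 in the H460R samples. PCOLCE, an enhancer of that protease, had a difference of 0.51 (limma adjusted p = 0.00497), and PCOLCE2 of -0.53 (0.0038).

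Fibril and elastic fiber partners, the substrates and scaffolds on which the oxidases work, were tested for 13 of 16 genes, with a median log2 ratio of -0.50 in H460C and -0.12 in H460R. In H460C 3 of them fell by Rank Products, all matrix proteins, and none rose. The unadjusted Rank Products p was under 0.05 for 7 and 8 genes, and limma called 11 and 10, in H460C and H460R. FBN2, a microfibril protein, had a log2 ratio of -3.71 and -4.26 in the H460C samples (exact Rank Products FDR = 0.000769). LUM, a small proteoglycan of collagen fibrils, had -3.08 and -3.38 (exact Rank Products FDR = 0.00498), and FBLN1, a fibulin, -1.81 and -2.18 (exact Rank Products FDR = 0.0445). In H460R FBN2 alone fell, with -1.67 and -1.71 (exact Rank Products FDR = 0.0133). Between the populations 2 were higher in H460C and 8 lower. EFEMP2, among those higher, passed the filter on dim probes only through H460C, so its call is not independent of the filter. FBN1 had means of -1.56 in H460C and 1.18 in H460R, a difference of -2.74 (limma adjusted p = 3.53e-06). FBLN5, which brings LOXL1 to elastin, had means of 1.79 and 0.29, a difference of 1.50 (limma adjusted p = 4.85e-05), while LOXL1 itself was lower in H460C.

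Of 16 collagen chains 15 had a probe and 12 were tested, with a median log2 ratio of 0.06 in H460C and -0.11 in H460R. COL7A1, the chain of anchoring fibrils, rose in H460C, with log2 ratios of 2.44 and 2.95 (exact Rank Products FDR = 0.0256), and none fell there. COL6A1 fell in H460R, with -1.70 and -1.62 (exact Rank Products FDR = 0.0141), and none rose there. The unadjusted Rank Products p was under 0.05 for 5 and 4 chains, and limma called 10 and 8, in H460C and H460R. COL4A1, a collagen IV chain of basement membrane, had a difference of 1.16 between H460C and H460R (limma adjusted p = 9.23e-05), and COL3A1 of 1.92 (limma adjusted p = 1.06e-05). COL4A2, the partner chain of COL4A1, was also higher in H460C (limma adjusted p = 0.000173). Between the populations 6 chains were higher in H460C and 4 lower. Lower in H460C were COL2A1 by -1.27, COL8A1 by -0.88, COL12A1 by -0.77 and COL5A2 by -0.75. COL2A1 was well above background on no H460C array. COL12A1 passed the filter on dim probes only through H460R, and COL6A2, among the chains higher in H460C, only through H460C. These 2 calls are therefore not independent of the filter. COL1A2 and COL11A1, fibrillar chains, were not tested.

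Of the 6 copper supply genes, which bring the cofactor of the oxidases, 5 were tested. Rank Products called none, with 0 and 1 genes at an unadjusted p under 0.05 and 5 and 3 genes called by limma in H460C and H460R. Their median log2 ratio was 0.29 and 0.27, and between the populations 1 was higher in H460C and 2 lower. ATOX1, the chaperone that feeds copper to the secretory pathway, had a difference of -0.44 between H460C and H460R (limma adjusted p = 0.00674), and the importer SLC31A1 of 0.39 (limma adjusted p = 0.0142).

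**Figure D5:**
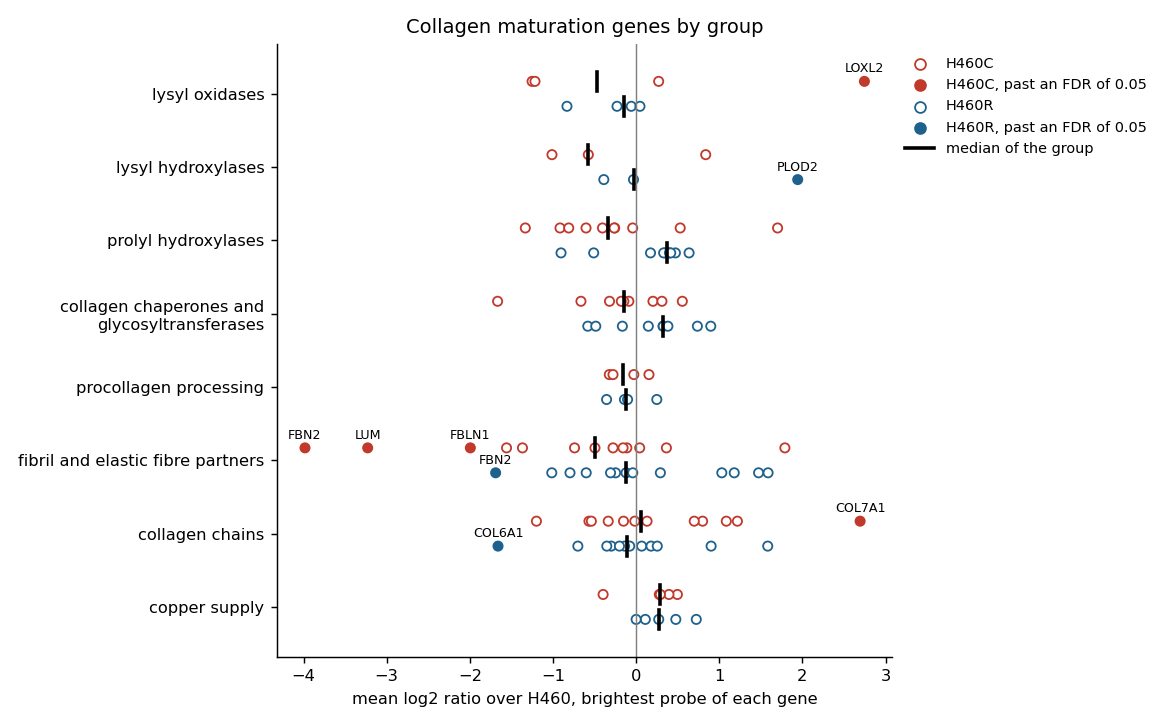
Mean log2 ratio over H460 (horizontal axis) of the tested genes in 8 groups (vertical axis), red for H460C and blue for H460R, filled where Rank Products passed an FDR of 0.05, with a black bar at the median of the group. LOXL2 at 2.75 and COL7A1 at 2.69 are the filled genes to the right of 0 in H460C, and PLOD2 at 1.94 in H460R.

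Depth and cell identity bear on all values alike. The studied channel of an array had 25868 to 28499 probes well above background, and the H460 channel 22834 to 26966. Of 5 epithelial markers all were tested and none was called against H460 by Rank Products, with 3 and 1 at an unadjusted p under 0.05 and 4 and 3 called by limma in H460C and H460R. They did not share a direction. In H460C the mean log2 ratio was 1.36 for EPCAM, 0.79 for CDH1, 0.13 for KRT18, 0.12 for KRT8 and -1.15 for KRT19, and in H460R the 5 means ran from -0.71 to -0.02. KRT8, KRT18 and KRT19 were well above background in every channel, and CDH1 on 4 of 4 H460C arrays and on none in H460R or H460. Of 7 fibroblast markers 6 had a probe and 4 were tested. PDGFRB, THY1 and LUM were well above background in every channel, DCN in all 8 H460 channels, on 4 of 4 H460R arrays and on 1 H460C array, and PDGFRA and FAP in none. Rank Products called only LUM, which fell in H460C, with 2 and 2 markers at an unadjusted p under 0.05 and 3 and 2 called by limma. The 4 tested did not share a direction. Their H460C means were -3.23 for LUM, -1.37 for DCN, -0.003 for THY1 and 0.20 for PDGFRB. In H460R the means ran from -1.01 to 0.04. Of 3 endothelial and 4 leukocyte markers 2 each were tested, and Rank Products called none. PECAM1 was well above background on 4 of 4 H460C arrays and in no other channel, VWF on 3 H460C arrays, 4 H460R arrays and in 4 H460 channels, and CDH5 in 1 H460 channel. CD14 was well above background in every channel, with means of -0.90 in H460C and -0.79 in H460R, CD3E on all H460C and H460R arrays and in 6 H460 channels, and PTPRC, the common leukocyte marker, in none. At an unadjusted p under 0.05 Rank Products passed CD14 alone of the endothelial and leukocyte markers, in both populations (p = 0.0125 in H460C and 0.00862 in H460R, exact). The part of other cell types in the values of the lysyl oxidases and lysyl hydroxylases was not tested.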

How the data were processed

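Two-color Agilent arrays (8) of H460C and H460R RNA against H460 RNA were read with Feature Extraction 10.1.1.1. The median intensities of each spot and its surroundings were used as the authors deposited them, not normalized. The deposited log10 ratios of the same software, and the authors' processed table of log2 ratios, already turned to studied cells over H460, served as alternatives. That table correlated with the ratios computed here at 0.952 to 0.997 across probes, with medians of -0.02 to 0. Its background correction is not given in the sources used here. The log10 ratios of 1 array (H460C replicate 1, Cy3) had lost their decimal points and were divided by 10 to the power of 9.

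Background was corrected by normexp (offset 50) and ratios were normalized by loess in each array, with control spots at weight 0 and outlier spots set to missing, in limma 3.58.1 (R 4.3.3). Averages were taken over the spots of a probe, then over both dyes of an RNA sample. The filter on dim probes asked for H460C, H460R or H460 to have 0.5 or more of a probe's spots above background on all of its arrays, by the software's mark. Each population was tested against 0 by Rank Products with the exact distribution, and H460C against H460R by limma (two-sided, 1 residual and 6.18 prior degrees of freedom, 1 against 2 samples), with Benjamini-Hochberg adjustment over 26014 probes at 0.05. For H460C the Rank Products leave out the spread between cultures, since its replicates could not be told apart. The same holds for limma against 0, which counted the H460C replicates as 2 samples. Nothing in the labels says whether the replicates came from separate cultures. Methods were tested on simulated data. Channel levels and bounds used loess and then Aquantile normalization, and a bound takes the higher of a dim probe's signal and the lowest signal well above background. Bounds were taken from means and carry no interval. Of 25868 probes with RefSeq accessions, 23958 matched a RefSeq symbol. Rule for named genes: every probe of the 8 genes, and the 5 genes nearest to LOXL2 and PLOD2. Listed genes were named when called against H460 or known as partners of a called gene. Of the listed genes called between the populations only some were named. Members, lists and tests were chosen with earlier results of these data known. Alternatives were other background corrections, normalizations, filters, single dyes, left-out arrays and replicates, other tests, and a block. The number of arrays limits the precision. The values of 1 leukocyte marker are not reported here.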

Additional observations from a re-analysis of the deposited data

Results flagged for a closer look

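All 8 tested probes are listed here because their ratios over H460 differed between the populations by the direct limma test, which called 45.4% of all tested probes. H460C minus H460R was 3.58 for LOXL2 and 0.33 for LOX on the log2 scale. It was -1.26 and -0.57 for the probes of LOXL3, -1.02 for LOXL1, -1.11 for PLOD2, -0.62 for PLOD3 and -0.54 for PLOD1. LOX and the dim LOXL3 probe passed the filter only through the population where they were higher. In the studied channels alone, an alternative chosen after seeing the data, the PLOD2 difference was -0.11. Of the 8, LOXL2 alone had means on opposite sides of H460 that both exceeded 0.5 in size. The cause of these differences was not tested, and slide, medium and adherence cannot be told apart from the population.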

How the results depend on the processing

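No called value of a tested probe changed sign under the alternatives run. In H460C the count of called probes, 1 by Rank Products, was 0 with the Feature Extraction log ratio (6 at an unadjusted p under 0.05), 8 with limma and 2 with limma at a minimum log2 ratio of 1 (LOXL1 and LOXL2). In H460R the count of 1 was 0 with the Feature Extraction log ratio, on the Cy3 arrays, where PLOD2 and LOXL1 had no test, and on the Cy5 arrays (2, 1 and 3 at an unadjusted p under 0.05), and 4 with limma. Between the populations the count of 8 was 5 with median centring, where LOX (adjusted p = 0.219), PLOD1 (0.102) and PLOD3 (0.0690) dropped out, 1 with limma at a minimum of 1 and 1 with the studied channels alone, LOXL2 in both. Over all tested probes the last 3 settings called 5931, 789 and 642 in place of 11812. Leaving out a replicate gave 7 to 8 called between the populations. Without a replicate, the ratios against H460 have no test. The mean of LOXL1 in H460C was -0.76 with median centring and that of PLOD2 1.33, and LOX and the dim LOXL3 probe reached 1.78 and -2.26 with the Feature Extraction log ratio. The bright LOXL3 probe and PLOD1 in H460R, not called, took the opposite sign in 3 settings each. The labels give no pairing by replicate number, and 2 pairs are too few to show one. With the replicate block, which also took the H460C replicates as 2 samples, 8 probes were called between the populations and 15562 over all probes, beside 8 and 14346 with the H460C replicates as 2 samples and no block. The cause of these changes was not tested. With 2 RNA samples and 1 slide a population, and LOX, LOXL4 and a LOXL3 probe near background, small differences could not be resolved.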
